A study of Mus musculus with 4 samples.

Results

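The genes described here are 8 mouse genes of purinergic signalling, taken by symbol from the 24312 genes of the deposited table. They are the G protein-coupled receptors P2ry14, P2ry10 and Adora2a, the ion channels P2rx4 and P2rx7, and the surface enzymes Entpd1, Nt5e and Cd38. The set was chosen with earlier results of these data known. All 8 were listed, and all 8 passed the filter on low counts. Polyadenylated RNA was sequenced from P14 cells, CD8 T cells of C57BL/6 background with a transgenic receptor for gp33, a peptide of lymphocytic choriomeningitis virus. The MIG group carried the retrovirus MSCV-IRES-GFP (MIG), which expresses GFP alone, and the BATF group carried MIG-BATF, which also expresses the AP-1 family factor BATF. Both groups had 1 day with 100 ng/ml gp33 before transduction and 1 day after it, then 2 days in 10 ng/ml IL-2, a sort for CD8 and GFP, and 2 days in 1 ng/ml IL-2. Each group had 2 libraries. The model is a culture in which the vector's promoter, not the cell's own, drives BATF, and nothing in the labels says that the libraries of a group came from separate mice, so each p-value refers only to the spread among these 4 libraries.

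Cells release ATP, UTP, NAD and UDP-sugars when they are stressed, activated or dying. P2X receptors are ATP-gated cation channels and P2Y receptors couple nucleotides to G proteins, while surface enzymes break the nucleotides down. Entpd1 (CD39) converts ATP and ADP to AMP, Nt5e (CD73) converts AMP to adenosine, and adenosine acting on the receptor encoded by Adora2a raises cAMP and restrains T cells. Cd38 consumes NAD. In mouse T cells NAD is also the substrate of the ART2 enzymes, which modify and open the P2rx7 channel.

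P2ry14 was the 1 gene of the 8 that passed the test over all genes, and it was lower in BATF. The sequences below are RefSeq promoter windows (GRCm38.p6, 250 bases before to 50 bases after a start site, written 5′ to 3′ on the gene's strand), shown because BATF binds DNA with JUN proteins at AP-1 motifs. Capitals mark matches to TGANTCA, the pattern used here for the AP-1 motif, where N stands for any base. The pattern reads the same on both strands, while a single match such as TGAATCA does not. The first pair of windows belongs to different start sites of P2ry14 on the minus strand, at chr3:59153443-59153742 and chr3:59131279-59131578, and the third to P2ry10 on the plus strand, at chrX:107088242-107088541, a gene that was not called.
P2ry14, start site 1: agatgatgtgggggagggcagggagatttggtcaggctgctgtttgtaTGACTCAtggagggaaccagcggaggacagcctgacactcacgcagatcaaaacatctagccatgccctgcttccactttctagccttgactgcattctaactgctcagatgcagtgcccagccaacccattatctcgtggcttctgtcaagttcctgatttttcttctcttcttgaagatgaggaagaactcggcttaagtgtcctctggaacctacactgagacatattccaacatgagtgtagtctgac
P2ry14, start site 2: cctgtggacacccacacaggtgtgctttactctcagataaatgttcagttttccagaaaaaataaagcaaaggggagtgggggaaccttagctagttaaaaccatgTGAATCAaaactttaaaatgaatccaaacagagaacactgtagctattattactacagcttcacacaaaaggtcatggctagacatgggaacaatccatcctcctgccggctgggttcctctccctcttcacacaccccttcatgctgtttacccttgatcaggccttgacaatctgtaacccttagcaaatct
P2ry10, start site 1: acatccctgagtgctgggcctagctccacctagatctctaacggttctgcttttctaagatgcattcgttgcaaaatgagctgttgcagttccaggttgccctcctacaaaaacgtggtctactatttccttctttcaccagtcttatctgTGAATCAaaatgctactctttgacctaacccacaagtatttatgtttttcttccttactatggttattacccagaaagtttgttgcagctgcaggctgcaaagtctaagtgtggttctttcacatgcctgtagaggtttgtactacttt
The match lay 202 and 144 bases before the start in the P2ry14 windows, as TGACTCA and TGAATCA, and 99 bases before it in the P2ry10 window, as TGAATCA. RefSeq windows were at hand for 7 of the 8 genes (Adora2a is named only), 13 windows in all, of which 4, in 3 genes, held the motif. The fourth was a window of P2rx7, with TGAGTCA 249 bases before the start. The other 2 of the 4 windows of P2ry14 held no match, nor did those of P2rx4, Entpd1, Nt5e and Cd38. Over all RefSeq windows of this length, 7.81% of 32851 held TGANTCA, as did at least 1 window of 8.97% of 27025 genes. The related CRE motif TGACGTCA was in 1.79% of all windows and in 0 of the 13. Genes differ in their number of windows, and windows of a gene can overlap, as those of start sites 2 and 3 of P2ry14 do. Which start sites these cells used was not analysed. A match is a description of letters, and BATF binding was not measured.

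Depth ran from 19004726 to 24795714 fragments per library. Batf itself, the transduced gene, stood at 36.1 and 26.5 CPM under MIG and at 1342 and 934 CPM under BATF, where CPM is a gene's fragment count scaled to a common library total. The CD8 T cell markers Cd8a, Cd8b1, Cd3e and 5 further genes were all detected. Their summed level was 3599.6 to 3703.9 CPM in MIG and 3074 to 3288 CPM in BATF, and 0 of the 8 were called. All 8 log2 fold changes were below 0 (median −0.16), as were 6698 of the 13008 over all genes. Of the 8, 3 reached an unadjusted edgeR p under 0.05, all lower in BATF, against 10.8% of all tested genes in either direction. Markers of other cells differed in level. Ms4a1 of B cells and Csf1r, Lyz2 and Cd14 of myeloid cells stayed under 1 CPM in every library, and so did Cd4. Itgam of myeloid cells lay between 2.62 and 7.68 CPM. Ikzf2, of the list of CD4 and regulatory T cell markers, lay between 13.7 and 18.1 CPM. Foxp3, the factor of regulatory T cells, which carry much Entpd1 and Nt5e, lay between 0.896 and 2.09 CPM. Summed over each list, B cell markers took 12.4 to 18.7 CPM over the 4 libraries, nearly all of it Cd79b, and CD4 and regulatory T cell markers took 39.0 to 43.3 CPM in MIG and 52.9 to 61.4 in BATF. The most abundant gene of the latter list, Zbtb7b, stood at 23.0 and 17.9 CPM in MIG and 44.2 and 34.9 CPM in BATF (edgeR adjusted p = 0.0658). Myeloid and dendritic cell markers took 27.5 to 28.1 CPM in MIG and 36.8 to 44.2 in BATF. Most of it was Itgax at 18.1 and 21.6 CPM in MIG and 34.4 and 31.5 in BATF (edgeR adjusted p = 0.0716). Markers of NK and gamma-delta T cells took 0.735 to 1.21 CPM over both groups, from 3 of the 6 genes of that list. The gamma-delta receptor genes Tcrg-C1, Tcrg-C2 and Trdc were not listed under these symbols. Erythroid, platelet and stromal markers took 61.9 to 89.7 CPM in MIG and 55.6 to 62.7 in BATF, most of it Pecam1. The part of other cells in the results below was not tested. In bulk RNA, fewer cells with a transcript and less transcript per cell cannot be told apart.

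**Figure D1:**
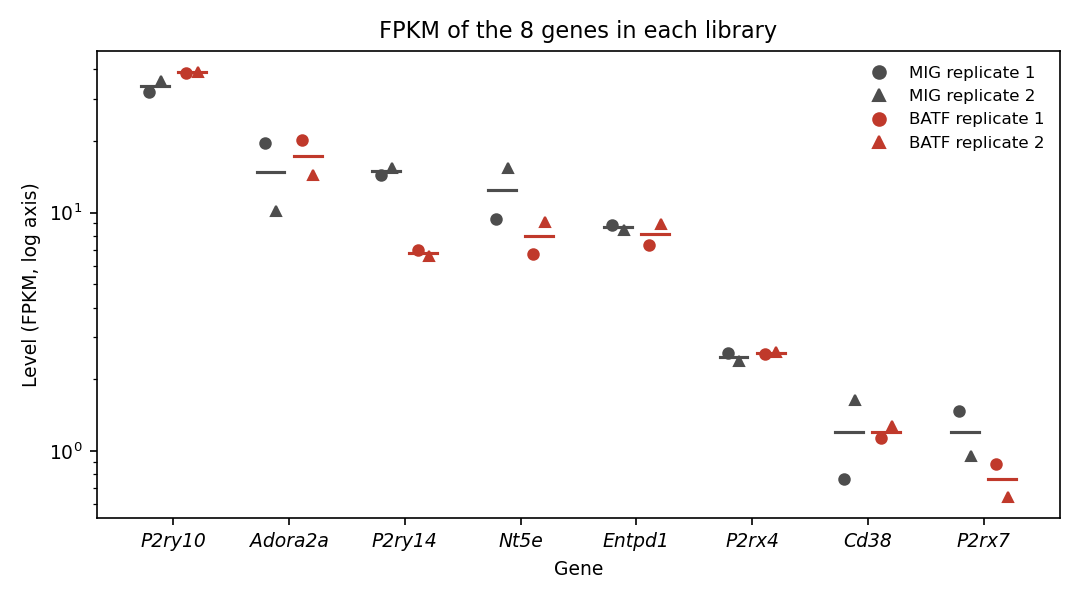
FPKM (log axis) of the 8 genes in each library, with MIG in grey, BATF in red, circles for replicate 1, triangles for replicate 2 and bars for group means. P2ry10 was highest at 32.1 to 38.8, P2ry14 dropped from 14.4 and 15.4 in MIG to 6.96 and 6.56 in BATF, and P2rx4, Cd38 and P2rx7 stayed at or under 2.61 throughout.

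Levels were compared between genes as FPKM, the deposited value per transcript length. In MIG the order of mean FPKM was P2ry10 at 33.8 ± 2.33, P2ry14 at 14.9 ± 0.747, Adora2a at 14.8 ± 6.62, Nt5e at 12.4 ± 4.26, Entpd1 at 8.68 ± 0.273, P2rx4 at 2.49 ± 0.125, P2rx7 at 1.21 ± 0.364 and Cd38 at 1.20 ± 0.623 (SD, n = 2). The libraries of P2ry14, Adora2a and Nt5e overlapped, as did those of P2rx7 and Cd38, so neighbours within these sets did not differ beyond their spread. In BATF the order was P2ry10 at 38.7 ± 0.208, Adora2a at 17.2 ± 4.04, Entpd1 at 8.14 ± 1.19, Nt5e at 7.94 ± 1.73, P2ry14 at 6.76 ± 0.286, P2rx4 at 2.58 ± 0.0457, Cd38 at 1.21 ± 0.104 and P2rx7 at 0.764 ± 0.167 (SD, n = 2). P2ry14 thus stood in the second place in MIG and in the fifth in BATF, where its libraries lay below those of Entpd1 and overlapped those of Nt5e. Among all 13008 tested genes the mean FPKM over the 4 libraries placed P2ry10 at the percentile 80.1, Adora2a at 62.9, P2ry14 at 54.0 and P2rx7 at 21.4.

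P2ry14, a receptor for UDP-glucose and other UDP-sugars, was measured at 22.2 and 24.4 CPM with the empty vector (543 and 503 fragments) and at 11.4 and 10.1 CPM with BATF (216 and 220 fragments). Both BATF libraries lay below both MIG libraries, with little spread within either group. It fell by 1.12 on the log2 scale (SE 0.14, 95% interval of the log2 fold change −1.45 to −0.78, edgeR's quasi-likelihood test, Benjamini-Hochberg adjusted p = 0.0229 over 13008 genes, n = 2 per group), so that the MIG level was 2.17 times the BATF level. Of the 8 genes, 1 was called lower and 0 higher. Of all tested genes, 0.208% were called lower, 0.884% higher and 1.09% in either direction. The 8 genes were chosen with earlier results of these data known, so this comparison is a description only. By p P2ry14 ranked at 58 of the 13008 genes. The call held in each of 11 alternative fits, where the log2 fold change lay between −1.20 and −1.03.

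**Figure D2:**
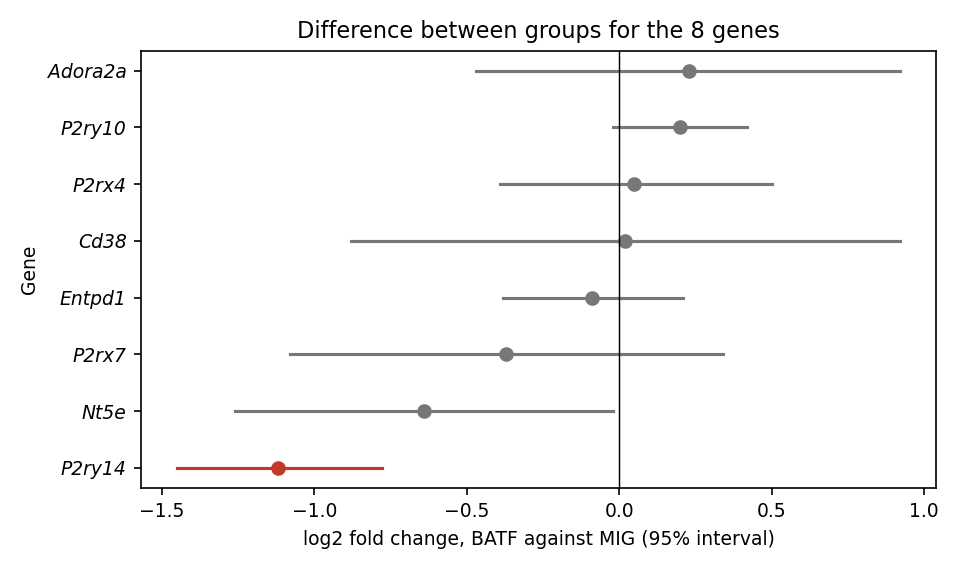
Log2 fold change of the 8 genes, BATF against MIG, with 95% intervals from the edgeR fit; the called gene is red and the others grey. P2ry14 lies at −1.12 with an interval clear of 0, and Nt5e at −0.64 has an interval that ends at −0.02.

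P2ry14 lies inside the longer gene Med12l on chromosome 3, on the opposite strand, and shares 0 exonic bases with it in GENCODE M21. The sources used here do not give the strandedness of the libraries, so fragments of the introns of Med12l could not be told from those of P2ry14. Med12l, a Mediator subunit paralog, was at 4.58 and 3.06 CPM in MIG and 5.64 and 3.68 CPM in BATF, below P2ry14 in every library and with overlapping groups. These levels do not give the number of Med12l intron fragments within P2ry14, which was not measured. Of the other receptor genes inside Med12l, none that was tested was called. Gpr171, a G protein-coupled receptor of lymphocytes, stood at 74.1 and 68.0 CPM in MIG and 89.5 and 80.3 CPM in BATF (edgeR log2 fold change 0.26, adjusted p = 0.375). P2ry12 and P2ry13, receptors for ADP, had at most 36 and 27 fragments in a library. Whether P2ry14 differed from these neighbours in its change was not tested.

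The 3 genes whose log2 CPM, centred over the 4 libraries, came closest to that of P2ry14 were Tulp3, Aqp3 and Sidt1, at Euclidean distances of 0.255, 0.301 and 0.323 among 9360 other genes whose mean CPM reached 5. Tulp3, which brings receptors into cilia, stood at 11.9 and 12.2 CPM in MIG and 4.90 and 5.61 CPM in BATF, and it fell (edgeR adjusted p = 0.0263). Aqp3, a channel for water and glycerol, stood at 12.7 and 13.6 CPM in MIG and 7.65 and 7.17 CPM in BATF and missed the threshold (edgeR adjusted p = 0.0622). Sidt1, a membrane protein of the SID-1 family, fell from 72.4 and 61.4 to 38.5 and 32.6 CPM (edgeR adjusted p = 0.0279). With 4 libraries this likeness is a description of level only.

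P2ry10, which carries a purinergic name but is known as a receptor for lysophosphatidylserine, was the most abundant of the 8. It stood at 84.2 and 96.4 CPM in MIG and at 104.1 and 103.2 CPM in BATF. Both BATF libraries lay above both MIG libraries, yet the log2 fold change was only 0.20 and was not called (95% interval −0.02 to 0.42, edgeR adjusted p = 0.541). The interval leaves out a change as large as that of P2ry14 in either direction. Its neighbour P2ry10b on the X chromosome, listed under the older symbol A630033H20Rik, was at 11.1 and 8.35 CPM in MIG and 11.9 and 11.1 CPM in BATF. The sources used here do not say how fragments that match both related genes were counted, so the P2ry10 level is uncertain to that extent.

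Adora2a, the adenosine receptor that raises cAMP, varied more between libraries of a group than between groups. It stood at 46.8 and 25.3 CPM in MIG and at 49.7 and 35.0 CPM in BATF. Replicate 1 was the higher library in both groups, by 1.85 times in MIG and 1.42 times in BATF, and the groups overlapped. The log2 fold change was 0.23 (95% interval −0.47 to 0.92, edgeR adjusted p = 0.916). Its sign depended on single libraries: dropping MIG replicate 2 gave −0.16, dropping BATF replicate 1 gave −0.05 and dropping MIG replicate 1 gave 0.74. Of the 4 adenosine receptors all were tested and 0 were called. Adora3, a receptor that lowers cAMP, was at 4.09 and 5.48 CPM in MIG and at 4.27 and 14.2 CPM in BATF, so that BATF replicate 2 alone was high (edgeR adjusted p = 0.602).

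P2rx4, an ATP-gated channel of cell membrane and lysosomes, had the narrowest range of CPM for its level among the 8. The SE of its log2 fold change, 0.19, was nonetheless larger than that of P2ry10, 0.09. P2rx4 stood at 4.62 and 4.47 CPM in MIG and at 4.69 and 4.73 CPM in BATF. Its BATF libraries lay barely above its MIG libraries, each value rests on 89 to 113 fragments, and the log2 fold change was 0.05 (95% interval −0.39 to 0.50, edgeR adjusted p = 0.977). Non-overlap of this kind was common: it held for 4 of the 8 genes (P2ry14 and Nt5e with BATF below MIG, P2ry10 and P2rx4 with BATF above it) and for 38.7% of all tested genes, 19.4% with BATF below and 19.2% with BATF above. P2rx4 and P2rx7 are adjacent coding genes on chromosome 5.

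P2rx7, the channel that opens a large pore at high ATP, stood at 4.82 and 3.35 CPM in MIG and at 3.85 and 2.53 CPM in BATF. The groups overlapped, with replicate 1 the higher library in each, and the log2 fold change was −0.37 (95% interval −1.08 to 0.34, edgeR adjusted p = 0.809). Dropping MIG replicate 1 gave −0.07 and dropping MIG replicate 2 gave −0.61, while dropping BATF replicate 1 gave −0.70 and dropping BATF replicate 2 gave −0.09, with no call in these fits. In the deposited FPKM, however, the libraries were at 1.47 and 0.954 in MIG and 0.882 and 0.646 in BATF and did not overlap. Both units come from the same fragments. The number of scaled fragments behind 1 FPKM, which stands for the transcript length used in the division, was 71.4 and 73.5 in MIG but 92.1 and 83.9 in BATF for this gene.

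The highest of these P2rx7 values was 1.29 times the lowest, a spread larger than in 99.9% of the 9863 tested genes with at least 50 fragments in every library. In 93.9% of those genes the ratio stayed under 1.02. P2rx7 has 5 coding transcripts in GENCODE M21, from 712 to 4936 bases long, and shares 119 of its 5970 exonic bases with the microRNA gene Mir8115 on the same strand. The ratio was 1.04 for P2ry14, whose BATF replicate 1 was highest at 34.5 scaled fragments per FPKM against 33.6 and 33.1 in MIG and 33.1 in BATF replicate 2. It was 1.00 for the other 6 genes. Transcript-level values were not analysed here, and with 55 to 118 fragments per library for P2rx7 the split between its transcripts rests on few fragments and was not tested.

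**Figure D3:**
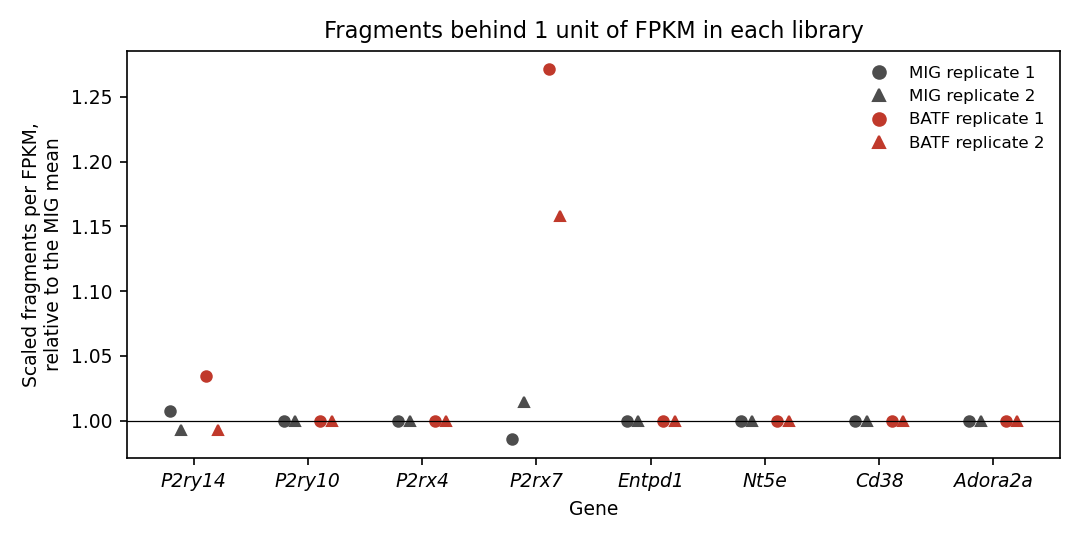
Scaled fragments behind 1 FPKM in each library, divided by the MIG mean of the gene, for the 8 genes (circles replicate 1, triangles replicate 2, MIG grey, BATF red). The BATF libraries of P2rx7, at 92.1 and 83.9 before division, lie above its MIG libraries at 71.4 and 73.5, P2ry14 varies by 1.04 times, and the other genes lie on the line.

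Of the enzymes, Entpd1, which removes phosphates from ATP and ADP, stood at 35.6 and 35.4 CPM in MIG and at 30.2 and 36.6 CPM in BATF. The MIG libraries lay between the BATF libraries. Its log2 fold change was −0.09 (95% interval −0.38 to 0.21, edgeR adjusted p = 0.924), and it turned to 0.04 without BATF replicate 1.

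Nt5e, which makes adenosine from AMP, stood at 31.6 and 53.9 CPM in MIG and at 23.4 and 31.3 CPM in BATF. All BATF values lay below the MIG values, but the highest BATF library and the lowest MIG library were nearly level, and replicate 2 was the higher library in both groups. The log2 fold change of −0.64 was not called (SE 0.26, 95% interval −1.26 to −0.02, unadjusted p = 0.0444, edgeR adjusted p = 0.438). Its size moved with each library left out. Without MIG replicate 2 the log2 fold change was −0.21 and did not pass, and without MIG replicate 1 it was −0.97 and passed. Without BATF replicate 1 and BATF replicate 2 it was −0.44 and −0.87 and did not pass. At an unadjusted p under 0.05, 2 of the 8 genes (P2ry14 and Nt5e) and 10.8% of all tested genes passed.

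Cd38, which consumes NAD and makes cyclic ADP-ribose, stood at 2.12 and 4.76 CPM in MIG and at 3.27 and 3.63 CPM in BATF. The BATF libraries lay between the MIG libraries, which differed by 2.24 times, a gap wider than in 99.6% of the 9361 tested genes whose mean CPM reached 5, a level that Cd38 itself did not reach. Its log2 fold change was 0.02 (95% interval −0.88 to 0.92, edgeR adjusted p = 1.00), with 52 to 98 fragments per library. Leaving out MIG replicate 1 gave −0.46, leaving out BATF replicate 2 gave −0.06, and leaving out MIG replicate 2 gave 0.69.

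The 8 genes varied unequally between the libraries of a group. The MIG libraries differed by 1.01 times in Entpd1, 1.03 in P2rx4, 1.10 in P2ry14 and 1.14 in P2ry10, and by 1.44 in P2rx7, 1.71 in Nt5e, 1.85 in Adora2a and 2.24 in Cd38, as ratios of CPM. In BATF the ratios were 1.52 in P2rx7, 1.42 in Adora2a and 1.34 in Nt5e, while that of Cd38 was 1.11. The moderated coefficient of variation from edgeR was lowest for P2ry10 at 8.01% and highest for Cd38 at 26.3%, against 11.3% shared over all genes. This estimate leaves out counting noise and draws each gene toward genes of similar level. It is not the gene's own spread between replicates.

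The wider pathway was read from 12 lists, which hold 116 distinct listed genes, 93 of them tested. Pde4a was the 1 gene called higher, P2ry14 the 1 called lower, and 91 were not called, against 1.09% called over all genes. The median log2 fold change was 0.02 in these lists, −0.03 in the 8 genes and −0.01 over all tested genes. The counts moved with single libraries. Leaving out MIG replicate 1 gave 3 list genes called higher and 3 lower, MIG replicate 2 gave 4 and 8, BATF replicate 1 gave 3 and 4, and BATF replicate 2 gave 3 and 2. Over all tested genes the same fits called 251, 589, 275 and 248 genes in place of 142.

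**Figure D4:**
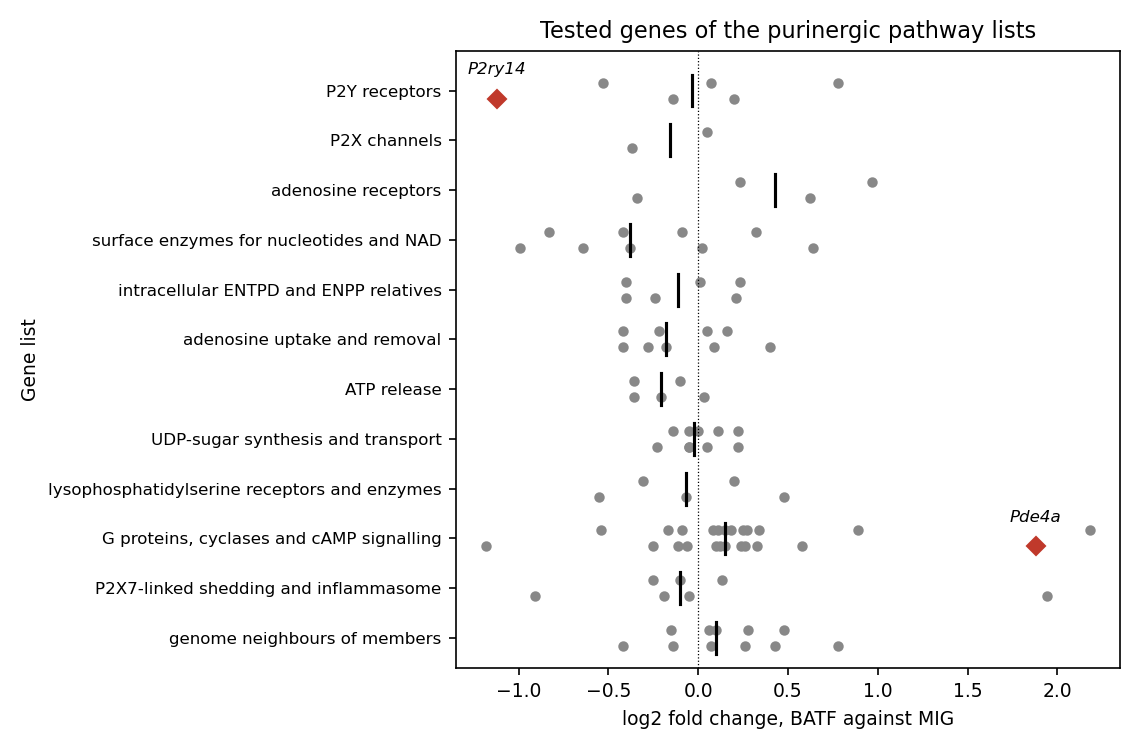
Log2 fold change, BATF against MIG, of each tested gene in the 12 pathway lists; red diamonds are called genes, grey circles are genes not called, and black bars are list medians. P2ry14 at −1.12 and Pde4a at 1.88 are the called genes, and the list medians lie between −0.38 and 0.42.

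Among other receptors, 6 of 8 P2Y genes and 2 of 7 P2X genes were tested, and P2ry14 was the 1 called. P2ry1, a receptor for ADP, was at 1.96 and 2.86 CPM in MIG and 1.42 and 1.88 CPM in BATF and was not called; it was chosen after its values were seen. The P2X genes other than P2rx4 and P2rx7 had at most 9 fragments in a library, too few to test. Among lysophosphatidylserine receptors and enzymes, 5 of 6 were tested and 0 called. Gpr174, another lysophosphatidylserine receptor, was at 33.3 and 28.2 CPM in MIG and 43.2 and 42.6 CPM in BATF (edgeR adjusted p = 0.158), and Gpr34, also such a receptor, had a log2 fold change of −0.55 (edgeR adjusted p = 0.427). Both receptors were chosen after their values were seen. Abhd16a, which makes lysophosphatidylserine from phosphatidylserine, had a log2 fold change of −0.31 (edgeR adjusted p = 0.319).

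Of 17 surface enzymes for nucleotides and NAD, 9 were tested, 0 were called, and 6 of the log2 fold changes were below 0 (median −0.38), as were 6698 of the 13008 over all genes. An unadjusted p under 0.05 was reached by 4 of the 9, all lower in BATF, and by 10.8% of all genes in either direction. Art2b, the ADP-ribosyltransferase that acts on P2rx7, stood at 8.13 and 5.29 CPM in MIG and 3.32 and 3.45 CPM in BATF (edgeR log2 fold change −0.99, adjusted p = 0.173). Art4, of the same family, stood at 8.82 and 8.74 CPM in MIG and 4.64 and 5.24 CPM in BATF (edgeR log2 fold change −0.83, adjusted p = 0.0946). The groups of both genes did not overlap, but neither passed, and both were chosen after their values were seen. Among 7 further ENTPD and ENPP relatives, 6 were tested and 0 called. The most abundant was Entpd5, an enzyme of the endoplasmic reticulum, at 30.8 ± 0.972 FPKM in MIG and 23.2 ± 1.16 in BATF (edgeR adjusted p = 0.0858). Entpd6 came next at 13.9 ± 0.895 and 11.7 ± 0.663 FPKM (SD, n = 2 per group).

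Of 10 genes of adenosine uptake and removal, 9 were tested and 0 called. Slc29a1, the equilibrative nucleoside transporter, was at 53.5 ± 1.02 FPKM in MIG and 47.0 ± 3.44 in BATF, and Pnp, which splits inosine, at 20.5 ± 1.65 and 21.2 ± 0.558 FPKM. Of 6 ATP release genes, 5 were tested and 0 called, and Panx1, the pannexin channel, was at 55.3 ± 6.20 FPKM under MIG and 42.9 ± 0.362 FPKM under BATF (edgeR adjusted p = 0.170), while the volume-regulated channel subunit Lrrc8a was at 13.9 ± 2.04 and 11.9 ± 2.15 FPKM. All 10 genes of UDP-sugar synthesis and transport, which make or move the ligands of P2ry14, were tested and 0 were called, with log2 fold changes from −0.23 to 0.22. Ugdh, which oxidises UDP-glucose, was at 19.9 ± 1.32 and 23.1 ± 1.30 FPKM, and Uxs1, which makes UDP-xylose, at 22.9 ± 4.41 and 20.7 ± 0.858 FPKM (SD, n = 2 per group).

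All 24 genes of G proteins, cyclases and cAMP signalling were tested. Pde4a, a cAMP phosphodiesterase, stood at 2.45 and 2.72 CPM in MIG and at 9.23 and 9.83 CPM in BATF. It rose by 1.88 on the log2 scale (SE of 0.18, n = 2 per group, adjusted p = 0.0113 in edgeR). It did not pass with limma on log2(FPKM + 1) (0.98, adjusted p = 0.0717) or on log2(FPKM + 0.1) (1.70, adjusted p = 0.0760). Why it did not pass in limma was not tested. The other 23 genes were not called. Of the 24, 17 had a positive and 7 a negative log2 fold change, while 6698 of the 13008 tested genes had a negative one. The median was 0.15 in the list and −0.01 over all tested genes. The list was chosen with earlier results of these data known. Gnas, the G protein subunit that Adora2a uses to raise cAMP, was at 550.5 ± 25.2 FPKM in MIG and 589.6 ± 6.72 in BATF, and Gnai2, the inhibitory subunit, at 496.2 ± 54.3 and 527.8 ± 0.458 FPKM (SD, n = 2 per group). Of 9 genes linked to P2X7 shedding and the inflammasome, 7 were tested and 0 called. Cd27, a costimulatory receptor of the TNF receptor family, was at 75.4 ± 23.4 FPKM in MIG and 72.2 ± 9.20 FPKM in BATF (SD, n = 2 per group). Of 13 listed genes near some of the genes described here, 11 were tested and 0 called. The most abundant was Anapc5 at 185.9 ± 15.5 and 192.4 ± 1.93 FPKM. That list held no neighbour of Entpd1 or Adora2a. It also left out Lpar4, Ift81 and Tbx18, adjacent coding genes of P2ry10, P2rx7 and Nt5e.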

How the data were processed

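The submitters' processing notes list mm9, TopHat2 2.1.1, Cufflinks 2.2.2 and Cuffdiff, and the sources used here give no gene annotation or strandedness. Per the file headers, the authors' table holds estimated counts (fragments per gene and library, 97.6% whole), a scaled fragment signal and FPKM. The table numbers replicates 0 and 1 and the titles 1 and 2, and no label ties one to the other, so 0 and 1 are called replicates 1 and 2 as names only. Whole-number roundings of the estimated counts went into edgeR 4.0.16 under R 4.3.3 (filterByExpr, TMM factors 0.988 to 1.01, glmQLFit and glmQLFTest, no covariate), adjusted by Benjamini-Hochberg over 13008 genes at 0.05. The SE is the unshrunk coefficient over the root of F, and 95% intervals use the test's degrees of freedom. A permutation test of 2 against 2 libraries cannot go below p = 0.333 and was not run. Replicates differed beyond counting noise (chi-square per gene 14.8 in MIG, 8.1 in BATF). DESeq2 1.42.0, limma 3.58.1, other scalings, no filter, a block and left-out libraries were alternatives. The 8 genes and the 18 lists (12 pathway, 6 marker lists) were chosen with earlier results of these data known. Named were the 8, called list genes, the 2 most abundant tested genes by FPKM in each list and the 3 nearest genes, with others marked as chosen after their values were seen. Some genes that this rule names are not reported here. Distances used log2(CPM + 0.5).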

Additional observations from a re-analysis of the deposited data

How the results depend on the processing

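P2ry14 was called lower in all 11 alternatives (log2 fold change −1.20 to −1.03). The counts of other calls moved. Over all genes, 115 were called higher and 27 lower, against 265 and 99 in DESeq2, 266 and 83 with no filter, 32 and 4 in limma on log2(FPKM + 1), 39 and 10 on log2(FPKM + 0.1), and 192 to 320 and 55 to 269 with 1 library left out. Of the 8 genes, 0 were called higher in any alternative, and 1 to 2 lower with 1 library left out. Of the pathway lists, 1 gene was called in each direction, against 3 and 3 in DESeq2, 3 and 3 with no filter, 0 higher in both limma fits, and 3 to 4 higher and 2 to 8 lower with 1 library left out, where the lone library's spread is taken from the other group. RLE and upper-quartile scaling changed no call among the 8 genes. Signs turned with 1 library left out for Entpd1 (−0.23 to 0.04), Cd38 (−0.46 to 0.69; −0.06 without BATF replicate 2) and Adora2a (−0.16 to 0.74; −0.05 without BATF replicate 1). The cause of these changes was not tested.

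Libraries with the same replicate number deviated together (correlation 0.466 across 9361 genes, 2 pairs), but no label says that they were paired. With the replicate number as a block, 1 residual degree of freedom is left, and edgeR called 916 genes higher and 588 lower, 14 and 17 in the pathway lists, and 2 of the 8 genes lower, P2ry14 (−1.12, adjusted p = 6.91e-15) and Nt5e (−0.62, adjusted p = 3.73e-07). P2rx4, P2rx7 and Cd38 rest on 52 to 118 fragments per library, and edgeR's moderated coefficients of variation for them were 13.6%, 20.7% and 26.3%. The parts of depth and of replicate spread in their intervals were not tested.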

Other observations

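Further genes of the list of G proteins, cyclases and cAMP signalling were chosen after their values were seen. Of these, Pde2a and Gnaq came close to the threshold. Pde2a, a cGMP-stimulated phosphodiesterase, stood at 96.9 and 62.8 CPM in MIG and at 37.6 and 33.0 CPM in BATF (edgeR log2 fold change −1.18, adjusted p = 0.0554). Gnaq, the G protein subunit that activates phospholipase C, stood at 14.7 and 19.2 CPM in MIG and at 32.0 and 30.8 CPM in BATF (edgeR log2 fold change 0.89, adjusted p = 0.0579). Gnai1, an inhibitory subunit, had 10 and 5 fragments under MIG and 40 and 21 under BATF (edgeR adjusted p = 0.164). The kinase subunits Prkacb and Prkar1a had log2 fold changes of 0.33 and 0.27 and were not called (edgeR adjusted p = 0.132 and 0.275). Pde4a and Pde2a, which both break down cyclic nucleotides, thus had log2 fold changes of opposite sign.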
